A study of Homo sapiens with 4 samples.

Results

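HOXB13 is a DNA-binding homeobox protein made in the prostate epithelium. LNCaP is an androgen-sensitive cell line established from a prostate cancer. The regions described here are the HOXB13 peaks of chromosomes 2 and 13, picked because these chromosomes held few peaks per Mb in the list labelled GSK2879552. These chromosomes held 5583 of the 68049 GSK2879552 peaks on placed chromosomes and 251 of the 3507 vehicle peaks. Peaks were assigned to an arm by their summit in hg19. The short arm of chromosome 2 (2p, summits below 92.3 Mb) held 1236 GSK2879552 and 77 vehicle peaks, and the long arm (2q, above 95.4 Mb) held 2586 and 91. The long arm of chromosome 13 (13q) held 1737 and 61, all the peaks of its chromosome. A further 24 and 22 peaks of chromosome 2 lay between its arms and entered no arm.

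Chromatin immunoprecipitation with sequencing was run on LNCaP cells labelled GSK2879552 (50 µM for 4 hours) or vehicle, all kept in RPMI-1640 and treated in medium labelled 5% CSS. GSK2879552 inhibits LSD1, an enzyme that removes methyl groups from histones. The same treatment text, which names the inhibitor, stands on all 4 samples, so titles and descriptions alone set the vehicle group apart. Each treatment had 2 sequencing lanes of 1 library and 1 peak list, so there was no replicate, no condition could be tested, and every interval covers counting error only. The genome-wide background was 201 tags per 10 kb for GSK2879552 and 44.3 for vehicle.

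Reads of such an experiment fall on bound sites and, thinly, everywhere else. A peak is called where overlapping tags (the pileup) exceed the tags expected locally (the local background). In these lists the local background was the tag number of the 10 kb around the peak, or the genome-wide value where that was larger. How far the tags of a window fell below the genome-wide value can therefore not be read. No peak had a background below the genome-wide one. The share of peaks that sat at this lowest value, within 1%, therefore tells how often the surrounding 10 kb held few tags. Both background tags and tags at bound sites depend on how many copies of a stretch of DNA a cell has, and LNCaP has a rearranged karyotype. The question was whether peak density and background change at the same places along the arms. DNA copy number was not measured in these files and its part in any result was not tested. Fewer copies and fewer tags per copy cannot be told apart in them. No gene was placed among the peaks, since no annotation of the build was used.

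HOXB13 peaks were sparse on all 3 arms, and sparsest on 2p. The GSK2879552 list held 13.4 peaks per Mb on 2p (exact 95% Poisson interval 12.7 to 14.2), 17.5 on 2q (16.8 to 18.2) and 18.1 on 13q (17.3 to 19). The 6 arms of chromosomes 1, 3 and 12 lay close together, between 26.3 per Mb on 1p and 28.0 on 3q. Pooled, they gave 27.0 per Mb. This density chose the chromosomes and is a description. In the order of chromosomes by density, chromosome 2 (16 per Mb) and chromosome 13 (18.1) came after X (5.37) and Y (14.1). The next were chromosomes 19 (19.8) and 4 (21.6), which were not chosen.

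Local background was low on the 3 sparse arms, though not only there. Over all chromosomes, 18.5% of the GSK2879552 peaks sat at the genome-wide background. On 2p the share was 47.6% (exact 95% binomial interval 44.8 to 50.4, 588 of 1236 peaks), on 2q 35.6% (33.8 to 37.5) and on 13q 28.0% (25.9 to 30.2). On chromosomes 1, 3 and 12 it was 14.4% (13.8 to 15), with arms between 11.9% on 3q and 17.1% on 1p. No interval of the 3 sparse arms reached these compared arms. Some chromosomes that were not chosen had shares like that of 13q: 30.9% on chromosome 19 and 28.1% on chromosome 22 (23.5 peaks per Mb). Chromosome 17 had 21.1% at 28.6 peaks per Mb, denser than the compared chromosomes. The median background was 1.02 times the genome-wide value on 2p, 1.08 on 2q and 1.12 on 13q, against 1.25 on chromosomes 1, 3 and 12. Neighbouring peaks can share tags of 1 window, so these intervals may be too narrow.

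The lowest densities of 2p lay in a single long stretch with abrupt ends. A search for the stretch of whole Mb that best divides the arm, made after the bins had been seen, was run once on the number of peaks and once on the share at the genome-wide background. Both searches returned the same stretch, 39 to 75 Mb. Its 36 Mb held 251 GSK2879552 peaks, 6.97 per Mb, against 17.2 per Mb in the rest of the searched arm. Of these 251 peaks, 217 sat at the genome-wide background, 86.5% (81.6 to 90.4), against 40.2% in the rest. The median distance between neighbouring summits was 86.8 kb inside, against 32.0 kb on 2q. The stretch was chosen on these values, so they are a description.

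Both edges of the stretch were visible at 1 Mb. On the side of the chromosome tip, the bins from 36 to 39 Mb held 16, 21 and 14 peaks, of which 5, 5 and 8 sat at the genome-wide background. The next 3 bins held 3, 1 and 4 peaks, and all of these sat at it. On the side of the centromere, the bins from 72 to 75 Mb held 6, 3 and 8 peaks, with 4, 3 and 8 at the genome-wide background. The next 3 held 16, 11 and 18, with 5, 5 and 8 at it. In these bins peak number and background changed within the same Mb at either end. The ends were placed by searches on these same peaks, and the bins were chosen after their values were seen. A peak's own tags also count in its background. The joint change at the ends is therefore a description and not a test. Bins before the first edge were uneven, since the bin from 34 to 35 Mb held only 3 peaks, all at the genome-wide background.

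The 7 whole bins of 5 Mb inside the stretch lay apart from the other bins of 2p. They held 5.2 to 8.4 peaks per Mb, with 75.7% to 93.5% at the genome-wide background. The 10 bins of 2p outside it held 12.2 to 25 per Mb, with 27.9% to 48.6%. On 2q 1 bin was as sparse as those of the stretch (7.6 per Mb), but the highest share at the genome-wide background there was 55.2%. Among 538 autosomal bins, 10 had fewer than 10 peaks per Mb together with at least 70% at the genome-wide background, thresholds set after the bins had been seen. These 7 were among them, with 1 bin each on chromosomes 13, 1 and 19. On chromosome X, 25 of 30 bins met both thresholds.

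**Figure D1:**
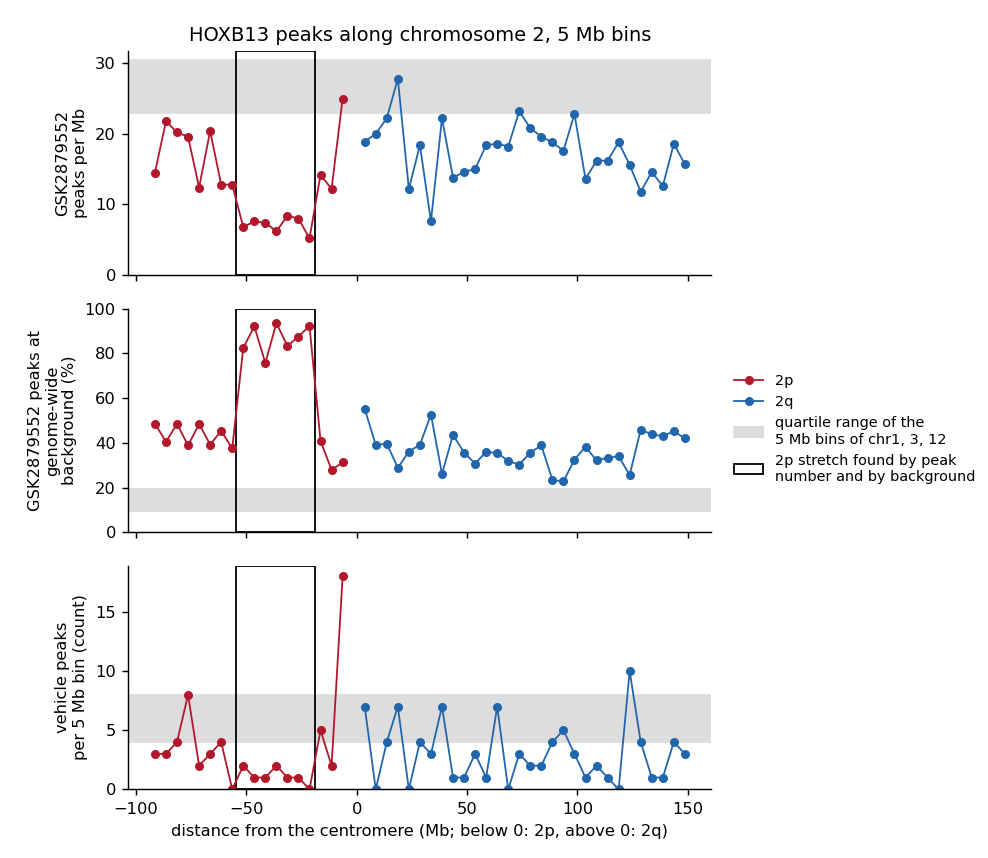
Values of 5 Mb bins along chromosome 2 against the distance in Mb from the midpoint between the arms: GSK2879552 peaks per Mb, the percentage of these peaks at the genome-wide background, and the number of vehicle peaks. The grey band is the quartile range of the bins of chromosomes 1, 3 and 12; inside the boxed stretch of 2p density lay at 5.2 to 8.4 per Mb in whole bins while the share at the genome-wide background rose to 75.7% to 93.5%.

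On both sides of the stretch, 2p resembled 2q in density in the GSK2879552 list. With 2 Mb beside the long peak-free intervals left out, the rest of 2p had 17.1 peaks per Mb and 2q 17.4, a ratio of 0.978 (exact conditional interval 0.906 to 1.05). The share at the genome-wide background was 40.1% (36.9 to 43.3) and 35.3% (33.5 to 37.2), so 2p stayed slightly higher. On the tip side it was 42.8% and on the centromere side 33.1%. Against chromosomes 1, 3 and 12 without such flanks (26.8 per Mb), the ratio was 0.636 (0.594 to 0.679) for the rest of 2p and 0.650 (0.623 to 0.678) for 2q. In this list, on which the chromosome and the stretch were chosen, there were thus 3 levels: the stretch, the rest of chromosome 2, and the compared chromosomes above both. In the vehicle list the rest of 2p without flanks was denser than 2q, with a ratio of 1.57 (1.09 to 2.23). Its ratio to chromosomes 1, 3 and 12 was 0.793 (0.586 to 1.05). The 2 sides of the stretch differed in this list. The centromere side had 1.63 vehicle peaks per Mb, and the tip side had 0.693, near the 0.61 of 2q.

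The long arm of chromosome 2 had no such stretch. Its best stretch by peak number was 126 to 130 Mb, with 6.5 per Mb and 50.0% at the genome-wide background. Its best stretch by background was 217 to 243 Mb at the far end of the arm, with 14 per Mb and 45.5%. The 2 did not overlap. Bins of 2q ranged from 7.6 to 27.8 per Mb and from 22.7% to 55.2% at the genome-wide background. The sparsest, 125 to 130 Mb, held 38 peaks with 52.6% at it and a median background of 1.0, and 220 to 225 Mb held 59 with 45.8%. The densest, 110 to 115 Mb, held 139 peaks with 28.8% at it and a median background of 1.12, and 165 to 170 Mb held 116 with 30.2%.

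On 13q, peak number and background parted. By peak number the best stretch ran from 52 to 94 Mb, with 533 peaks, 12.7 per Mb against 22.3 outside. The share at the genome-wide background was 28.0% inside (24.2 to 32.0) and 28.0% outside (25.5 to 30.6), and the median background was 1.14 and 1.12. Density there was lower by a ratio of 0.569 (0.513 to 0.631) without a lower background in this list. By background the best stretch was far shorter, 68 to 76 Mb, with 68.4% at the genome-wide background (51.3 to 82.5) and 38 peaks, 4.75 per Mb. This short stretch lay wholly inside the long one and covered 19% of it. Each stretch was chosen on its own measure in these same peaks. The ratio of 0.569 and the share of 68.4% are therefore descriptions.

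The short stretch of 13q had less regular borders than that of 2p. The bins at 67 and 68 Mb held 23 and 2 peaks, and those at 75 and 76 Mb held 5 and 15. Inside it, the bin from 70 to 71 Mb held 17 of the 38 peaks, 11 of them at the genome-wide background. Without these 8 Mb, the long stretch still had 14.6 peaks per Mb, a ratio of 0.653 (0.587 to 0.726) to the rest of the arm, with 24.8% at the genome-wide background (21.1 to 28.9). The long stretch was chosen for few peaks, so this ratio too is a description. The 2 sparsest bins of 13q were 70 to 75 Mb, with 28 peaks and 71.4% at the genome-wide background, and 85 to 90 Mb, with 51 and 49%. The densest were 40 to 45 Mb, with 153 peaks and 23.5%, and 30 to 35 Mb, with 146 and 19.9%. Outside its long stretch 13q had 22.3 per Mb, a ratio to 2q without flanks of 1.28 (1.19 to 1.37). No sparse stretch was taken out of 2q, so this ratio follows in part from the choice. Over whole arms the densities were 18.1 per Mb on 13q and 17.5 on 2q.

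**Figure D2:**
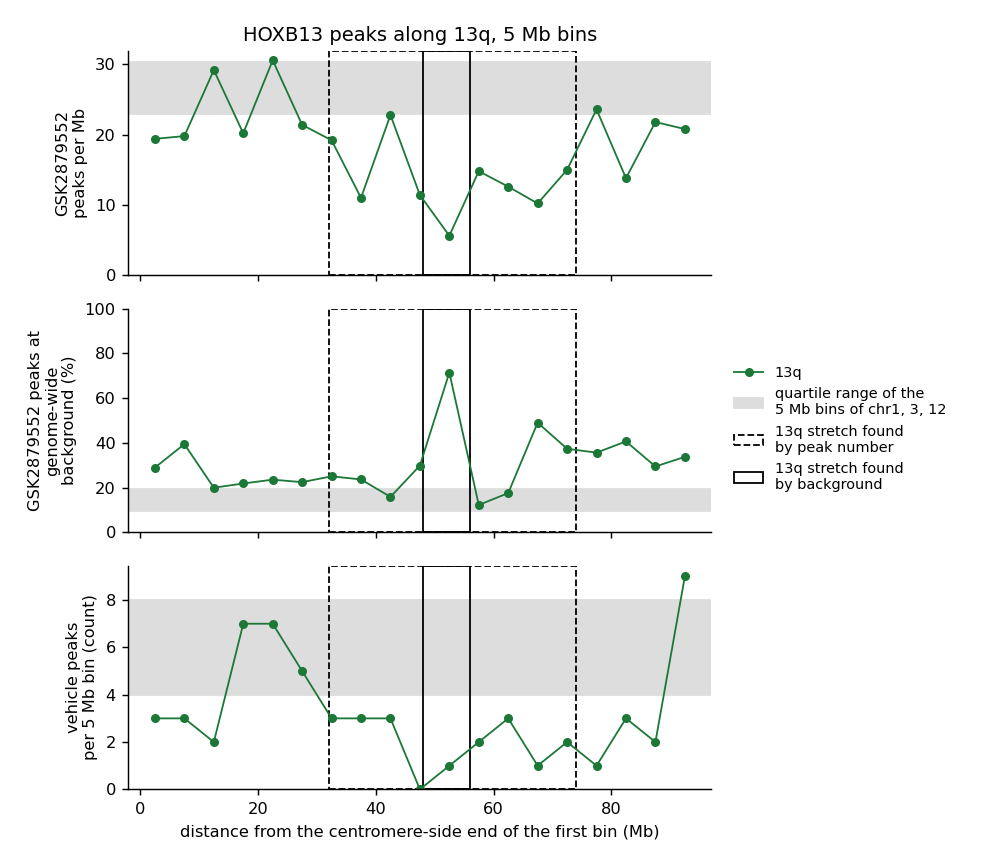
Values of 5 Mb bins along 13q against the distance in Mb from the first bin, drawn as for chromosome 2. Inside the dashed box, found by peak number, density is mostly low while the share at the genome-wide background runs from 12.2% to 71.4%, on both sides of the 19.9% to 40.6% of the bins outside it; the bin of 71.4% lies in the solid box, found by background.

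Over pooled bins, density and background rose together on the sparse and on the compared arms, though weakly on some single arms. The rank correlation (Spearman) of peaks per Mb with the median background was 0.593 over the 67 bins of 2p, 2q and 13q, and 0.392 over the 110 bins of chromosomes 1, 3 and 12. The bins share 1 library, its depth and its base composition, and a peak's own tags count in its 10 kb window, so these are descriptions. With a peak's own pileup taken out of its window the correlations were 0.350 and 0.37, and with bins shifted by 2.5 Mb they were 0.460 and 0.466, so the order of the 2 sets was not kept. On 2p the correlation was 0.783 over 18 bins, and 0.152 over the 10 bins outside the stretch. On 2q it was 0.471 over 30 bins. On 13q it was 0.346 over 19 bins, and 0.697 over the 10 bins outside its long stretch. The relation on 2p was thus weak outside the stretch. Single compared arms ran from 0.185 on 3p and 0.203 on 1q to 0.680 on 12q. By the share at the genome-wide background in place of the median background, the correlation on 13q was -0.384 over all its bins and -0.479 outside the long stretch. By this share 1q (0.197) and 3p (0.153) went the other way, and the other compared arms were negative.

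A single step per arm, as first planned, described these arms poorly. On 2p the best step in density lay at 30 Mb (18.1 to 10.6 per Mb) and that in median background at 80 Mb (1.03 to 1.1), 50 Mb apart, accounting for 36.7% and 32.9% of the variance between bins. The steps lay 105 Mb apart on 2q and 35 Mb apart on 13q. On the compared arms they were 5 to 90 Mb apart. The search for a stretch with 2 ends returned overlapping stretches on 2 of the 6 compared arms. On 1p it gave 15 to 27 Mb by peak number and 18 to 27 Mb by background, with 93.9% at the genome-wide background in the latter. On 12q the 3 Mb found by number lay within the 36 Mb found by background. Those 3 Mb held 7 peaks with 0.0% at the genome-wide background, against 15.2% outside. So few peaks cannot tell the 2 shares apart. The 2 searches gave the same ends only on 2p among the 9 arms searched.

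**Figure D3:**
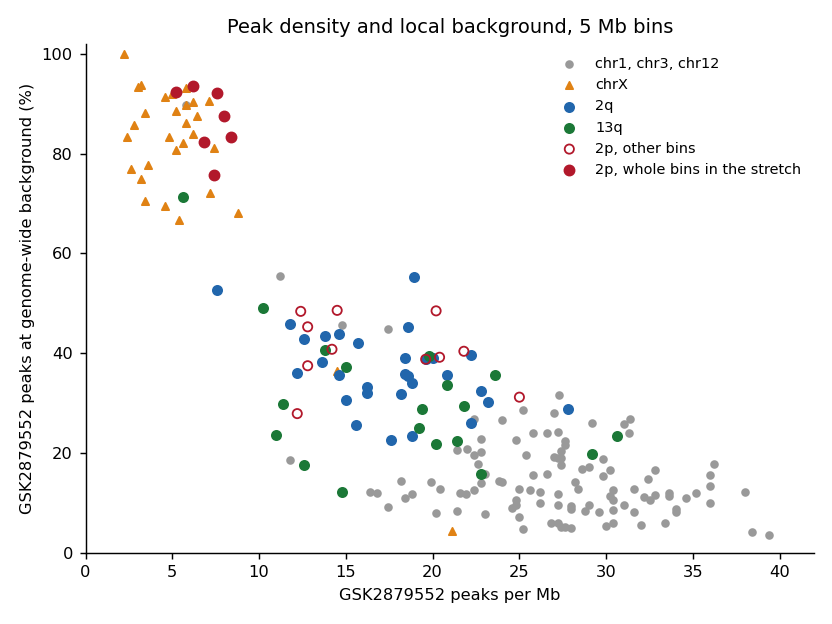
Each point is a 5 Mb bin, with GSK2879552 peaks per Mb on the horizontal axis and the percentage of these peaks at the genome-wide background on the vertical axis. The 7 whole bins of the 2p stretch lie at 5.2 to 8.4 per Mb among the bins of chromosome X, apart from the other bins of 2p (12.2 to 25 per Mb).

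The shortfall of the 2p stretch against chromosomes 1, 3 and 12 was larger among tall peaks. By pileup at the summit, its density was 0.297 of theirs (0.221 to 0.392) at 10 to under 15 tags, 0.308 (0.256 to 0.368) at 15 to under 20 and 0.223 (0.171 to 0.286) at 20 to under 30. At 30 to under 50 it was 0.123 (0.0613 to 0.221), with 11 peaks, and at 50 or more it was 0.0973 (0.0117 to 0.355), with 2 peaks. The intervals of the lowest class and of 30 to under 50 tags met at 0.221, and the difference between classes was not tested. On 2q the ratio was 0.880 (0.805 to 0.962) in the lowest class and between 0.469 and 0.650 in the others. In the long stretch of 13q it was 0.684 (0.572 to 0.813) in the lowest class and between 0.373 and 0.489 in the others. The rest of 13q had a ratio of 1.05 (0.922 to 1.19) in the lowest class and 0.519 (0.293 to 0.856) in the highest. A lower background lets a peak pass at a lower pileup, so counts in the lowest classes also depend on the background.

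At equal pileup, peaks of the 2p stretch sat at the genome-wide background far more often. The stretch was chosen on this share among the same peaks, so the values by class are a description and not a check of it. Among peaks of 15 to under 20 tags the share was 92.8% in the stretch, 47.1% in the rest of 2p, 37.9% on 2q, 27.6% in the long stretch of 13q, 33.9% in the rest of 13q and 16.6% on chromosomes 1, 3 and 12. Among peaks of 20 to under 30 tags it was 80.6%, 24.7%, 18.7%, 9.92%, 11.3% and 5.33%. The order of the stretch, the rest of chromosome 2 and the compared chromosomes was the same in both classes. Other sparse regions had similar values: at 15 to under 20 tags the density ratio was 0.177 (0.101 to 0.288) in the short stretch of 13q, with 81.2% of 16 peaks at the genome-wide background, and 0.186 (0.165 to 0.21) on chromosome X, with 87.8%. At 20 to under 30 tags chromosome X had 85.4%. With the peak's own pileup taken out of the 10 kb tags, the share was 93.6% in the stretch, 53.0% on 2q and 27.1% on chromosomes 1, 3 and 12. The median pileup hardly differed, at 17 in the stretch, 17 on 2q and 18 on the compared chromosomes. The authors' fold enrichment, relative to each peak's local background, had a median of 4.74, 4.38 and 4.22.

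**Figure D4:**
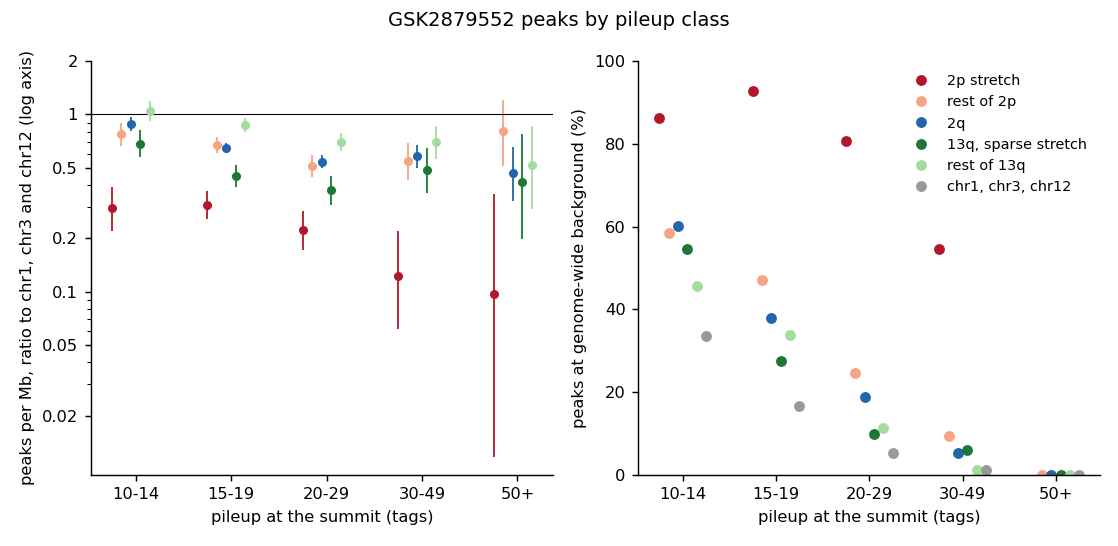
Left, peaks per Mb of the GSK2879552 list as a ratio to chromosomes 1, 3 and 12 by pileup class (log axis, exact 95% intervals). Right, the percentage of peaks at the genome-wide background in the same classes, drawn where a class holds at least 10 peaks; among the regions drawn, the 2p stretch lies lowest on the left (0.308 at 15 to under 20 tags) and highest on the right (92.8%).

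The vehicle list was also sparse on these arms. It did not itself enter the choice of chromosomes or stretches, but 91.2% of all its peaks overlapped a GSK2879552 peak. Regions picked for few GSK2879552 peaks can therefore be short of vehicle peaks through that choice, and the vehicle counts are no independent check. It held 0.834 peaks per Mb on 2p, 0.616 on 2q and 0.635 on 13q, against 1.26 on chromosomes 1, 3 and 12. The ratios were 0.663 (exact conditional 95% interval 0.517 to 0.840), 0.490 (0.389 to 0.610) and 0.505 (0.382 to 0.657), so each interval lay below 1. Peaks beside the centromere raised the value of 2p. With 2 Mb beside the long peak-free intervals left out, its ratio was 0.55 (0.415 to 0.717). The bin from 85 to 90 Mb alone held 18 of its 77 vehicle peaks, and the upper quartile of the background on the centromere side was 7.14 times the genome-wide value. At a −log10 q of at least 5 the ratio of 2p was 1.01 (0.708 to 1.41).

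The 2p stretch was sparse in the vehicle list as well, though all its vehicle peaks overlapped a GSK2879552 peak. It held 8 vehicle peaks in 36 Mb, 0.222 per Mb (0.0959 to 0.438). The ratio was 0.232 (0.0952 to 0.492) to the rest of 2p without flanks, 0.361 (0.151 to 0.742) to 2q and 0.177 (0.0760 to 0.350) to chromosomes 1, 3 and 12. On the tip side of the stretch, 2p had 0.693 vehicle peaks per Mb (0.456 to 1.01), near the 2q value, and on the centromere side 1.63 (1.06 to 2.41). Of the 8 peaks, 4 sat at the genome-wide background of the vehicle library, against 4.53% of all vehicle peaks, 7.69% on 2q and 3.45% on chromosomes 1, 3 and 12. The interval for 4 of 8 is wide, 15.7% to 84.3%.

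On 13q, the long stretch held 16 vehicle peaks, 0.381 per Mb, a ratio of 0.457 (0.241 to 0.825) to the rest of the arm. Without the 8 Mb of the short stretch it held 14, a ratio of 0.494 (0.251 to 0.917). The short stretch held 2, a ratio of 0.373 (0.0441 to 1.41) to the rest of 13q, which 8 Mb at this depth cannot tell from 1. In the long stretch 6 of the 16 vehicle peaks sat at the genome-wide background of their library, 37.5% (15.2 to 64.6), against 11.1% (3.71 to 24.1) in the rest of the arm, and 35.7% (12.8 to 64.9) without the short stretch. The vehicle share was thus higher inside than outside, unlike that of the GSK2879552 list, but its 2 intervals overlap. Vehicle peaks at the genome-wide background made up 18% on 13q (9.36 to 30), 11.7% on 2p (5.49 to 21.0) and 7.69% on 2q (3.15 to 15.2).

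**Figure D5:**
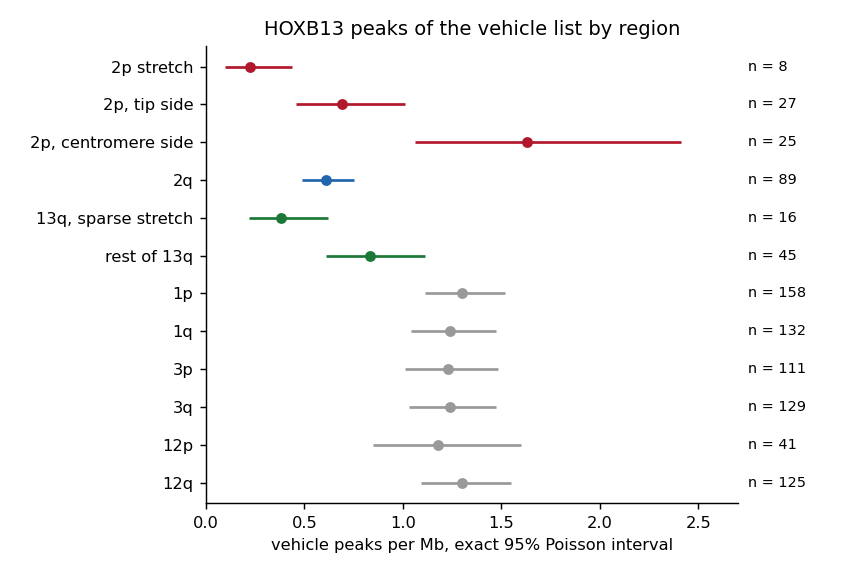
Vehicle peaks per Mb with exact 95% Poisson intervals for regions of 2p, 2q and 13q and for the arms of chromosomes 1, 3 and 12; n is the number of peaks. The 2p stretch is lowest at 0.222 per Mb with 8 peaks, and the centromere side of 2p is highest at 1.63.

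Most vehicle peaks of these arms were sites of the GSK2879552 list too. A GSK2879552 peak overlapped 74 of 77 vehicle peaks on 2p, 96.1% (89.0 to 99.2), 96.7% on 2q (90.7 to 99.3) and 85.2% on 13q (73.8 to 93.0). The share was 91.2% over all chromosomes and lay within each of these 3 intervals. In the reverse direction, 5.42% of the GSK2879552 peaks of 2p had a vehicle peak (4.23 to 6.83), 3.36% on 2q (2.7 to 4.13) and 2.99% on 13q (2.24 to 3.91), against 4.59% over all chromosomes. In the 2p stretch it was 3.19% (1.39 to 6.18). At the 8 shared sites of the stretch the median background was 1.03 times the genome-wide value for vehicle and 1.0 times for GSK2879552. At the 86 shared sites of 2q it was 1.32 in both lists, and at the 589 of chromosomes 1, 3 and 12 it was 1.63 in both. The 2 libraries thus ordered these 3 regions alike in background at the sites they shared, the stretch having been chosen for low GSK2879552 background. The rest of 2p broke this order. At its 49 shared sites the median was 1.27 for vehicle, below 2q, and 1.34 for GSK2879552, above 2q.

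The shared site of 2p with the highest GSK2879552 fold enrichment lay inside the sparse stretch, where the low background raises this ratio. On chromosome 2 at 42282966 to 42283400, the GSK2879552 peak reached a fold enrichment of 15.8, from 59 tags over the genome-wide background of 2.79. Its vehicle peak at 42283115 to 42283330 reached 9.03, from 13 tags over 0.55. All 8 vehicle peaks of the stretch overlapped a GSK2879552 peak. Their pileups ran from 6 to 13, and those of their partners from 21 to 59. The shared sites of 2p next in fold enrichment, at 88124333 to 88124869 (15.4) and at 80496963 to 80497291 (13.6), lay outside it, with backgrounds of 1.43 and 1.09 times the genome-wide value. The first of these had more tags than the site in the stretch, 76 against 59, and a vehicle fold enrichment of 20.2. Single strong sites thus occurred in a stretch where peaks were few.

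On 2q the highest shared fold enrichment was 16.2, at 159214073 to 159214827, from 101 tags over 5.28. It was followed by 149639247 to 149639497 with 15.9 and 220636758 to 220637132 with 14.7. Their vehicle peaks had fold enrichments of 10.7, 24.1 and 9.21. On chromosome 13 the site at 110076409 to 110076766 stood far above the rest of the arm, at 25.7, from 186 tags over 6.27. The next shared sites of 13q, at 46503065 to 46503367 and 51608960 to 51609360, had 13.4 and 12.8. All 3 lay outside the stretches of 13q.

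Strong sites without a vehicle peak also occurred on each arm. On 2p they lay at 79344685 to 79345045 (13.4) and 79398774 to 79399249 (13), both on the centromere side of the stretch. On 2q they lay at 104947885 to 104948248 (13.7) and 170821327 to 170821704 (12.3). On 13q they lay at 52967176 to 52967555 (12.6), inside the long stretch, and at 43149978 to 43150436 (12.2). Their GSK2879552 pileups were between 57 and 74. They were picked for the missing vehicle peak, so nothing follows from it for a single site.

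The longest intervals without a GSK2879552 peak on these arms, other than that between the arms of chromosome 2, were not in the 2p stretch. On 2p they ran from 21866101 to 23155212 (1289 kb) and from 90490877 to 91596756 (1106 kb). On 2q they ran from 229479033 to 230415920 (936.9 kb) and from 126250820 to 127065869 (815 kb). On 13q they ran from 87710398 to 88841072 (1131 kb) and from 68416332 to 69354619 (938.3 kb), both inside its long stretch and the second also inside the short one. No vehicle peak lay in any of these 6 intervals. No list of assembly gaps was used, so sequence without reads was not told apart from sequence without HOXB13 peaks.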

How the data were processed

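HOXB13 peak lists of LNCaP cells, 1 per treatment for 2 lanes each, were read as the authors deposited them. Tools in the submitters' processing notes are MACS2 2.1.2, SAMtools 0.1.18 and BWA 0.7.2, with builds GRCh37 and hg19. Whether an input control was used, and with which options peaks were called, is not given in the sources used. Positions are hg19, counted from 1. The deposited fold enrichment is a ratio of pileup to local background at the summit, and the deposited −log10 p-value and −log10 q-value belong to the same position. In 100% of rows the deposited score equalled the −log10 q-value times 10, with decimals dropped. The deposited summit offset in bp placed each peak. Values of single peaks are the authors' own and were used only within a list.

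Pileup k and background λ were solved together: (k + 1)/(λ + 1) is the fold enrichment, and the Poisson tail above k at λ is the p-value. The whole k nearest to the deposited −log10 p was taken, which came within 0.001 for 100% of the peaks in both lists. For 4 vehicle peaks, none on chromosomes 2 and 13, a second k fitted and the one with λ at or above the genome-wide value was taken. Backgrounds above the genome-wide value were whole tags per 10 kb (within 0.05) for tags extended to 139 bp (GSK2879552) and 100 bp (vehicle). Lengths left out peak-free intervals of at least 2.5 Mb. Bins of 5 Mb needed 2.5 Mb of length and 10 peaks. Arms of chromosomes 1, 3 and 12 were divided at their longest peak-free interval. A stretch was the run of at least 2 whole Mb with the highest Poisson likelihood (peak number, lower inside) or binomial likelihood (share at the genome-wide background, higher inside), without the 2 Mb beside long peak-free intervals. Intervals are exact at 95%, and ratios of counts per Mb use the conditional binomial. Lists overlapped at 1 bp or more.

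Peaks named per arm are the 3 of highest fold enrichment with a vehicle peak and the 2 without; bins are the 2 densest and 2 sparsest, and intervals without peaks the 2 longest. The 1 Mb bins at the edges were chosen after their values were seen. The chromosomes, arms and tests were chosen with earlier results of these data known. The solver, overlap, interval and stretch routines were tested on simulated data. Python 3.11.15, SciPy 1.17.1 and pandas 2.3.3 were used. Peaks on other sequences and planned gene positions were left out, the latter for want of an hg19 annotation.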

Additional observations from a re-analysis of the deposited data

How the results depend on the processing

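No paired analysis was possible because each treatment has 1 peak list for both lanes, and for the same reason no lane could be left out. Of 80 alternative values for 16 results, 44 stayed within the main interval (for correlations, within 0.1), 35 moved out of it and 1 changed side.

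With a fold enrichment of at least 5, the GSK2879552 density ratio to chromosomes 1, 3 and 12 was 0.680 on 2p, 0.783 on 2q and 0.738 on 13q. A low background raises the fold enrichment at a given pileup, so this threshold is easier to pass where background is low. At a −log10 q of at least 5 it was 0.560 on 2p, with long peak-free intervals kept 0.680 on 2q, and without the stretches 0.648 on 2p and 0.826 on 13q. All remained below 1. The vehicle ratio of 2p was 1.01 at a −log10 q of at least 5, the 1 change of side, and 0.975 without its stretch. That of 2q was 0.693 at the same threshold, and that of 13q 0.662 without its stretch.

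The share of peaks at the genome-wide background, in the order 2p, 2q, 13q and chromosomes 1, 3 and 12, was 62.4%, 54.1%, 45.9% and 28.9% within 10% of it, 59.2%, 46.3%, 37.9% and 21.6% below a pileup of 20, and 62.3%, 53.3%, 43.9% and 26.7% with the pileup taken out. The order of the regions was the same in each. Without its stretch the share of 2p was 37.7%.

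For vehicle peaks overlapped by a GSK2879552 peak, the share in the same order was 31.2%, 31.9%, 24.6% and 26% when each had to cover 50% of the other. At a −log10 q of at least 5 it was 100% on 2p and 2q and 98.4% on chromosomes 1, 3 and 12. The correlation over bins of chromosomes 2 and 13 was 0.389 in bins of 10 Mb, 0.460 in shifted bins and 0.350 with the pileup taken out. That of chromosomes 1, 3 and 12 was 0.288, 0.466 and 0.37 under the same 3 settings and 0.505 by Pearson, so it was higher than on chromosomes 2 and 13 in shifted bins and with the pileup taken out. Leaving out the stretches, and using the share at the genome-wide background, were chosen after seeing the data. The vehicle depth limits statements on stretches of a few Mb, where 2 to 16 peaks were counted.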
